A study of Mus musculus with 8 samples.

Results

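Heme and iron handling was followed through 7 genes, taken by name from the table of 38293 gene identifiers: Hmox1, Blvrb, Fth1, Ftl1, Tfrc, Slc40a1 and Slc11a1. All 7 were found, and all 7 were among the 13972 genes with enough counts to be tested. The tissue was the left ventricle of C57BL/6J mice, taken 3 days after ischemia-reperfusion injury, made by closing and then reopening the left anterior descending coronary artery. Every heart had received 2 injections of 10 µl of UPy-PEG hydrogel, a polymer gel that serves as a drug depot, into the muscle. The hydrogel group (4 libraries) had gel without drug. In the antimiR-195 group (4 libraries) the gel carried an oligonucleotide that blocks the microRNA miR-195. Both groups therefore carried the injury, the surgery and the gel, and neither shows these genes in an uninjured heart. No label says whether the 8 libraries came from 8 animals, so p-values measure only the spread between these libraries, which may be technical.

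Heme released from myoglobin, hemoglobin and mitochondrial proteins is opened by heme oxygenase into biliverdin, carbon monoxide and iron, and biliverdin is then reduced to bilirubin. The freed iron is stored in ferritin, a shell of heavy and light chains, or leaves the cell through ferroportin, and new iron enters bound to transferrin through the transferrin receptor. When iron is short, the iron regulatory proteins bind iron-responsive elements, short hairpins in certain mRNAs. Binding in a 5′ UTR blocks translation, and binding in the 3′ UTR of the transferrin receptor protects its mRNA from decay. In infarcted muscle, macrophages take up and recycle much of the iron of dead cells.

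These elements are shown because they divide the 7 genes by a known mode of control. A search of annotated UTRs of GRCm38 (GENCODE M21) looked for a bulged C, 5 paired bases, the loop CAGTGN and the 5 partner bases on the transcribed strand. It found the element in 4 of the 7 genes. The capitals mark the loop, and each sequence is 27 bases.
Fth1, 5′ UTR, chr19:9982733-9982759, plus strand: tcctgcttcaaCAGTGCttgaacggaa
Ftl1, 5′ UTR, chr7:45459780-45459806, minus strand: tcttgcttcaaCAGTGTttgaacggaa
Slc40a1, 5′ UTR, chr1:45925466-45925492, minus strand: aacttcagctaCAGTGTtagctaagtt
Tfrc, 3′ UTR, chr16:32631220-32631246, plus strand: attatcggaagCAGTGCcttccataat
Tfrc, 3′ UTR, chr16:32631599-32631625, plus strand: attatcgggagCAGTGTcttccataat
Tfrc, 3′ UTR, chr16:32631664-32631690, plus strand: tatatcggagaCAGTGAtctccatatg
Tfrc, 3′ UTR, chr16:32631711-32631737, plus strand: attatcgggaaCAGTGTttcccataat

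Both ferritin chains and the exporter carried 1 element each in the 5′ UTR, and the receptor carried 4 in the 3′ UTR. By the same search, 22 of 19061 genes (0.115%) held the element in the 5′ UTR and 121 of 20676 (0.585%) in the 3′ UTR. Tfrc was the 1 gene with 3 or more in the 3′ UTR. Hmox1, Blvrb and Slc11a1 held none. The 79 further genes of heme and iron metabolism were looked up by their listed names, so a gene annotated under another name would be missed. Of those found, Alas2 held 1 in the 5′ UTR and Bola3 held 1 in the 3′ UTR. These are matches of letters and of pairing, and binding was not measured. The search asked for all 5 pairs, so elements with a mismatched stem were not found. A gene without a match may therefore still hold an element.

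**Figure D1:**
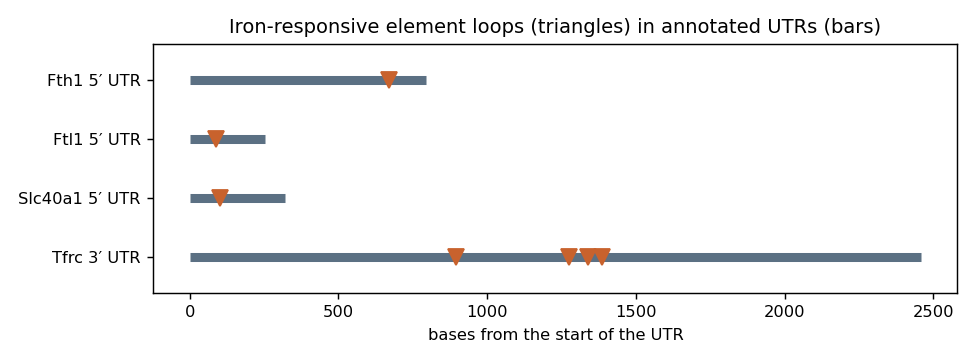
Position of iron-responsive element loops (triangles) along the annotated UTRs (bars) of 4 genes, in bases from the UTR start, using the transcript with the longest UTR. The 4 loops of Tfrc lie from base 895 to base 1386 of a 3′ UTR of 2458 bases.

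The drug was aimed at miR-195, so the 3′ UTRs were also searched for matches to its seed, bases 2 to 8, shown in capitals in the mature sequence from RefSeq (GRCm38.p6).
miR-195a-5p, chr11:70235062-70235082, plus strand: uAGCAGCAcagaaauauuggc
None of the 7 genes held a match in the searched 3′ UTR, whose lengths ran from 156 bases in Fth1 to 2458 in Tfrc. A match was counted when bases 2 to 8 paired (TGCTGCT in the UTR), or bases 2 to 7 with an A opposite base 1 (GCTGCTA in the UTR). Of 20676 genes with an annotated 3′ UTR, 4921 (23.8%) held at least 1. The absence of these letters from the searched UTRs does not bear on sites of other kinds.

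Libraries held 16872968 to 22751753 gene counts, and the 7 genes ranged from 257 counts for Blvrb in antimiR-195 replicate 3 to 87536 for Fth1 in antimiR-195 replicate 2. Cardiomyocyte marker genes were at a summed 72863 to 84303 CPM (a gene's counts relative to the TMM-scaled total of its library) in all 8 libraries, and none of the 10 was at 0, as the tissue label says. AntimiR-195 replicate 2 stood apart, with correlations of log2 CPM across genes of 0.944 to 0.970 with the other libraries. In whole ventricle, fewer cells of a type and less RNA per cell cannot be told apart.

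None of the 7 genes passed the test between groups. Of all 13972 genes, 0 (0%) passed edgeR's quasi-likelihood test at an adjusted p of 0.05, 178 (1.27%) had an unadjusted p below 0.05, and 150 (1.07%) had groups that did not overlap. The 7 genes counted 0 in each of these 3 classes. The adjusted p was 0.9999 for each of the 7. Their log2 fold changes, antimiR-195 over hydrogel, were positive in 4 and negative in 3, with a median of 0.03, against 0.01 over all genes tested.

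**Figure D2:**
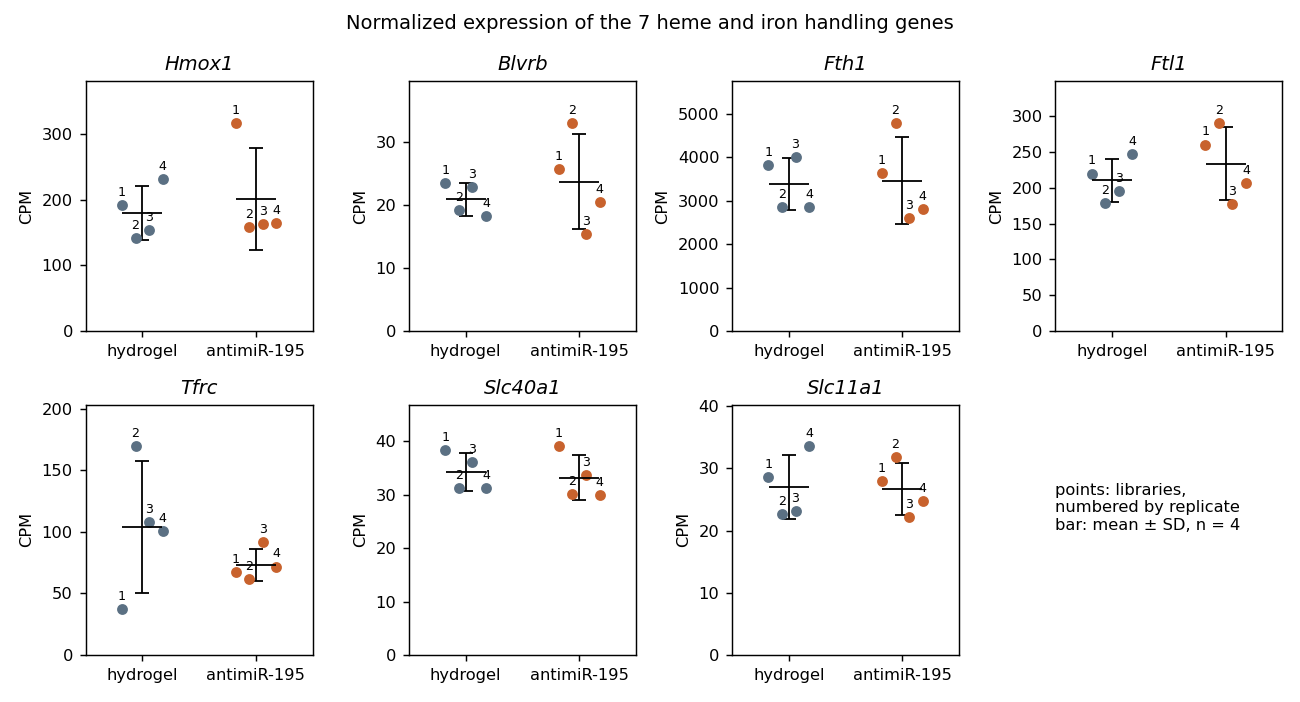
CPM of the 7 genes in each library (points numbered by replicate), with the mean and SD of each group (n = 4); each panel has its own axis from 0. In every panel the groups overlap, and Tfrc spans the widest fold range, from 37.3 to 169 CPM.

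Hmox1 encodes the inducible heme oxygenase, which opens the heme ring, and is switched on by heme and oxidative stress. It lies at chr8:75093621-75100589. Its level was 192, 142, 154 and 232 CPM in hydrogel replicates 1 to 4, and 317, 158, 163 and 164 CPM in antimiR-195 replicates 1 to 4. AntimiR-195 replicate 1 was the highest of all 8, and the other 3 libraries of its group lay together inside the hydrogel range.

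The mean of Hmox1 was 179.9 ± 40.9 CPM in hydrogel and 201 ± 77.7 CPM in antimiR-195 (SD, n = 4), and the log2 fold change was 0.16 ± 0.25 (SE), with a 95% interval of -0.39 to 0.70. Without antimiR-195 replicate 1 the value was -0.16, so its sign rested on that library. The high value came from 5662 counts, against 2722 to 4182 in the other 7 libraries. The macrophage and monocyte markers, 15 genes with none at 0, summed to 1718 CPM in that library, the second lowest of the 8. Their range was 1820 to 2449 CPM in hydrogel and 1545 to 2700 CPM in antimiR-195.

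The same library was the highest of the 8 in 5 of 15 genes of the antioxidant axis of Nrf2 and Bach1, the activator and the heme-sensing repressor of Hmox1. These were Mafg, Mafk, Gclc, Gclm and Spic, named after their values were seen. Gclm, the modifier subunit of glutathione synthesis, was at 46.4 CPM there and at 29.6 to 43.5 CPM in the other 7 libraries. Spic, a transcription factor that heme induces in macrophages, was at 2.63 CPM there, with 0.685 to 1.94 CPM elsewhere. AntimiR-195 replicate 2 was highest for 3 of the 15 genes. In antimiR-195 replicate 1 Mafg was nearly tied, at 46.5 CPM against 46.0 CPM in hydrogel replicate 1. The rest of the 15 were not highest in antimiR-195 replicate 1. There Nfe2l2, the gene of Nrf2, was at 93.4 CPM, against 98.2 CPM in hydrogel replicate 4. Nqo1 was at 62.5 CPM there and at 73.7 CPM in hydrogel replicate 3. The count of 5 was not set against all genes, and its bearing on Hmox1 was not tested.

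Blvrb encodes biliverdin reductase B, a flavin and biliverdin reductase abundant in red cells, and lies at chr7:27447978-27466144. It was at 23.4, 19.1, 22.8 and 18.2 CPM in hydrogel replicates 1 to 4 and at 25.7, 33.0, 15.4 and 20.4 CPM in antimiR-195 replicates 1 to 4. The antimiR-195 libraries held both the highest and the lowest value. The group means were 20.9 ± 2.59 and 23.6 ± 7.53 CPM (SD, n = 4), with a log2 fold change of 0.18 ± 0.21 and a 95% interval of -0.28 to 0.64. Without antimiR-195 replicate 2 it was -0.03.

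Fth1, the ferritin heavy chain, holds the site that oxidizes iron for storage, and lies at chr19:9980598-9985098. It ranked 22 among all genes by mean CPM and took 0.258% to 0.496% of the gene counts of a library. Values were 3814, 2856, 3993 and 2861 CPM in hydrogel replicates 1 to 4, and 3637, 4788, 2608 and 2811 CPM in antimiR-195 replicates 1 to 4. Here too antimiR-195 replicate 2 was highest and antimiR-195 replicate 3 lowest, with the hydrogel libraries between them.

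For Fth1 the means were 3381 ± 608 and 3461 ± 991 CPM (SD, n = 4), with a log2 fold change of 0.03 ± 0.21 and a 95% interval of -0.44 to 0.51. It was -0.17 without antimiR-195 replicate 2.

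Ftl1, the ferritin light chain, helps form the iron core, and lies at chr7:45457944-45459884. It was at 219.8, 178, 196 and 247 CPM in hydrogel replicates 1 to 4 and at 260.3, 291, 177 and 206 CPM in antimiR-195 replicates 1 to 4. AntimiR-195 replicates 1 and 2 lay above all hydrogel libraries, and antimiR-195 replicate 3 lay just below them. The means were 210.2 ± 29.7 and 234 ± 51.2 CPM (SD, n = 4), with a log2 fold change of 0.15 ± 0.17 and a 95% interval of -0.23 to 0.53. Without antimiR-195 replicate 2 it was 0.02.

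Levels of Ftl1 are uncertain. The annotation holds 9 transcripts of other genes with at least 90% identity to it over at least 200 bases, and reads that align to several places are not in the gene counts. The 7 of these in the table held 24 to 50 counts per library together, 0.658% to 0.947% of the Ftl1 count. Alignments to more than 1 place made up 42.1% to 47.8% of the total counted over all lines of a library's count file. How many of those belong to Ftl1 was not tested. Gm10252 overlaps Ftl1 on the opposite strand and Gm22133 on the same strand, and whether the counting used strand is not given in the sources used here. Fth1 had 1 such copy, at 14 to 50 counts, and Slc11a1 had 1 that is not in the table.

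The ferritin chains and Blvrb were highest in antimiR-195 replicate 2 and lowest in antimiR-195 replicate 3, as were the medians of short genes. In antimiR-195 replicate 2, genes under 1000 bases deviated from their mean over the 8 libraries by a median of 0.62 on the log2 scale, genes of 1000 to 2000 bases by 0.33 and genes over 5000 bases by -0.25. In antimiR-195 replicate 3 the same medians were -0.36, -0.22 and 0.18. Fth1 has 866 bases, Ftl1 1340 and Blvrb 1414, by the lengths in the deposited values.

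In antimiR-195 replicate 2, Fth1 deviated by 0.52, Ftl1 by 0.41 and Blvrb by 0.60 from their means over the 8 libraries on the log2 scale. With the length trend of each library removed, which was an alternative chosen after the data were seen, these became 0.06, 0.11 and 0.32. The SD of Fth1 over the 8 libraries went from 0.31 to 0.12. The fold change of Fth1 was then -0.04. In antimiR-195 replicate 2, Fth1 then lay close to its mean, and Blvrb did not. Ftl1 moved further from its mean in hydrogel replicate 3, from -0.16 to -0.25, and in hydrogel replicate 4, from 0.17 to 0.27. Its SD over the 8 libraries went from 0.26 to 0.19. Whether length accounts for the shared extremes was not tested.

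**Figure D3:**
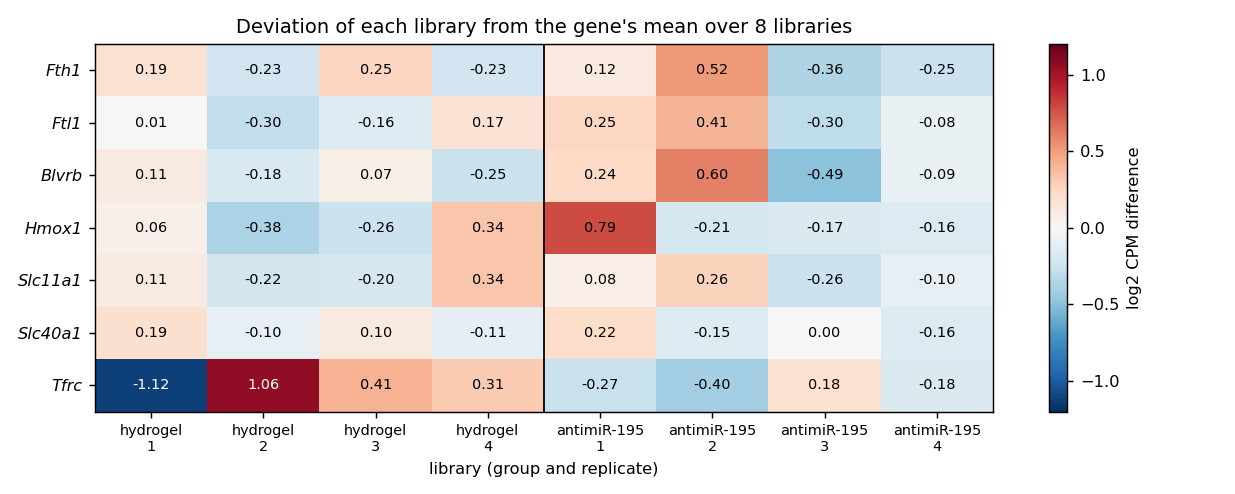
Deviation of each library from the gene's mean over the 8 libraries, in log2 CPM, with genes ordered so that the short ones are on top. Fth1, Ftl1 and Blvrb are all highest in antimiR-195 replicate 2, Hmox1 is highest in antimiR-195 replicate 1 at 0.79, and Tfrc runs from -1.12 to 1.06 within the hydrogel group.

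Tfrc, the transferrin receptor, lies at chr16:32608920-32632794. Iron regulatory proteins protect its mRNA through elements in the 3′ UTR, where the search above found 4 matches. Tfrc was at 37.3, 169, 108 and 101 CPM in hydrogel replicates 1 to 4 and at 67.4, 61.3, 91.9 and 71.8 CPM in antimiR-195 replicates 1 to 4. The hydrogel group held both extremes, 4.53-fold apart, and all antimiR-195 libraries fell between hydrogel replicate 1 and the other 3 hydrogel libraries. The SD of its log2 CPM over the 8 libraries, 0.65, was above that of 96.5% of the genes tested.

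The mean of Tfrc was 104 ± 53.9 CPM in hydrogel and 73.1 ± 13.3 CPM in antimiR-195 (SD, n = 4), and the log2 fold change was -0.51 ± 0.35, with a 95% interval of -1.27 to 0.26. Its unadjusted p was 0.173 in edgeR's quasi-likelihood test. Without hydrogel replicate 1 the log2 fold change was -0.79, and edgeR gave an unadjusted p of 0.00377 and an adjusted p of 1 by the model across all genes, not by permutation. The 3 other hydrogel libraries were all above the 4 antimiR-195 libraries. Without hydrogel replicate 2 it was -0.17, and with hydrogel replicate 1 and antimiR-195 replicate 2 both left out it was -0.72. Without antimiR-195 replicate 2 it was -0.44. Limma-voom with quality weights put it at -0.16, with weights of 1.80 for hydrogel replicate 1 and 0.162 for antimiR-195 replicate 2. With all 8 libraries kept, limma-trend on log2(RPKM + 0.1) gave -0.31. Removal of the length trend, chosen after the data were seen, gave -0.32. The sign was negative in all of these, while the size depended on hydrogel replicates 1 and 2 and on the method.

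**Figure D4:**
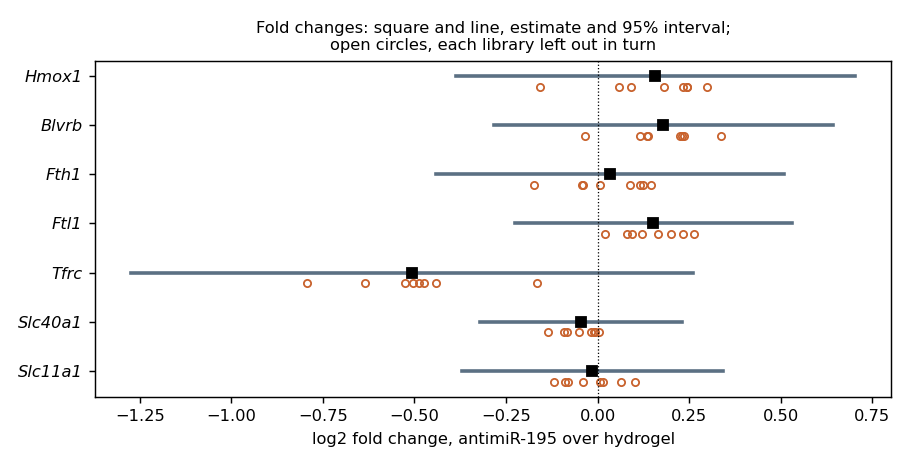
Log2 fold change of antimiR-195 over hydrogel for the 7 genes (squares) with its 95% interval (lines), and the value with each of the 8 libraries left out in turn (open circles). All intervals include 0, and Tfrc moves most, from -0.79 to -0.17.

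Young red cells also carry Tfrc and genes of heme synthesis. The erythroid markers, of which 9 of 10 list entries were found, summed to 404 to 1535 CPM in hydrogel and 510 to 1926 CPM in antimiR-195, nearly all of it globin. Rhag was at 0 in all 8 libraries, Epb42 was at 0 in 3 of them, and Slc4a1 at 0 in hydrogel replicate 1. By library the sum was 404, 1535, 1398 and 415 CPM in hydrogel replicates 1 to 4. It was 1053, 1926, 510 and 558 CPM in antimiR-195 replicates 1 to 4. Hydrogel replicates 2 and 3 were high and hydrogel replicate 1 was lowest in both Tfrc and this sum. AntimiR-195 replicate 2, in contrast, had the highest sum and the second lowest Tfrc. Hydrogel replicate 4 had the second lowest sum and, at 101 CPM, the third highest Tfrc. The part of erythroid RNA in the spread of Tfrc was not tested.

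The first enzyme of heme synthesis has a general form, Alas1, and an erythroid form, Alas2, whose mRNA carries an iron-responsive element. Alas1 was at 156, 265, 254 and 194 CPM in hydrogel replicates 1 to 4 and at 162, 177, 188 and 176 CPM in antimiR-195 replicates 1 to 4. Alas2, named after its values were seen, was at 7.56, 33.6, 28.8 and 9.44 CPM in hydrogel and at 18.7, 22.6, 13.9 and 14.1 CPM in antimiR-195, in the same order. Tfrc, Alas1 and Alas2 all had their highest value in hydrogel replicate 2 and their lowest in hydrogel replicate 1. The 3 differed in hydrogel replicate 4, which was above all antimiR-195 libraries for Tfrc and Alas1 and below them all for Alas2. Of the 12 heme synthesis genes, 4 were highest in hydrogel replicate 2 and 2 were lowest in hydrogel replicate 1. In antimiR-195 replicate 2, 5 were highest, and in antimiR-195 replicate 3, 5 were lowest. The likeness of Alas1 and Alas2 to Tfrc was not tested.

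**Figure D5:**
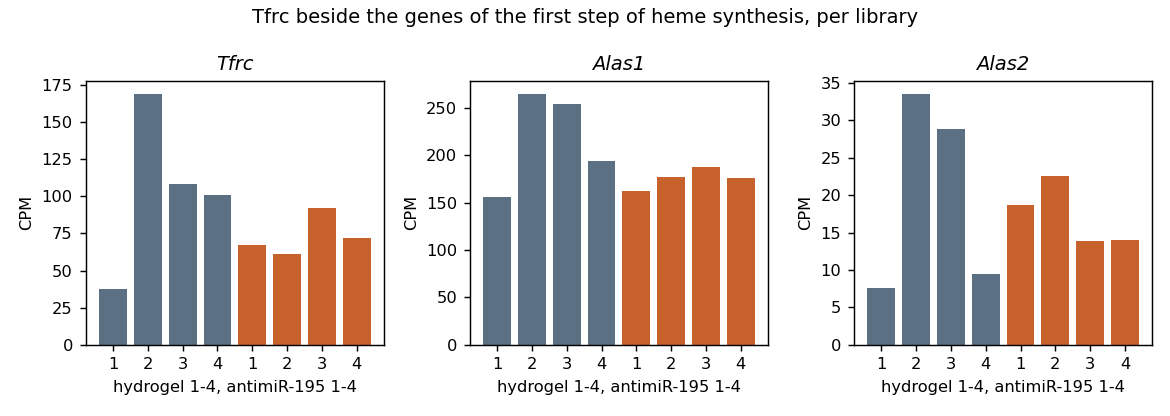
CPM of Tfrc, Alas1 and Alas2 in each library, hydrogel replicates 1 to 4 on the left (grey) and antimiR-195 replicates 1 to 4 on the right (orange), with axes from 0. Hydrogel replicate 2 is highest and hydrogel replicate 1 lowest in each panel.

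Tfrc is also high in dividing cells. The 8 markers of cycling cells, none at 0, summed to 102 to 156 CPM in hydrogel and 125 to 212 CPM in antimiR-195. Per library they summed to 139, 117, 102 and 156 CPM in hydrogel replicates 1 to 4. In antimiR-195 replicates 1 to 4 the sums were 162, 212, 126 and 125 CPM. The part of cycling cells in the spread of Tfrc was not tested.

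Slc40a1 encodes ferroportin, the iron exporter of the cell, and lies at chr1:45908068-45926523. It was at 38.4, 31.3, 36.1 and 31.2 CPM in hydrogel replicates 1 to 4 and at 39.1, 30.2, 33.6 and 30.0 CPM in antimiR-195 replicates 1 to 4. It was the steadiest of the 7, with 1.30-fold between its extremes and an SD of 0.15 on the log2 scale, above that of 20.7% of genes. The means were 34.3 ± 3.58 and 33.2 ± 4.23 CPM (SD, n = 4), with a log2 fold change of -0.04 ± 0.13 and a 95% interval of -0.32 to 0.23. On the fold scale the interval runs from 0.801 to 1.18, so larger differences in either direction lay outside it.

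Slc11a1 encodes a metal transporter of the phagosome membrane of macrophages and neutrophils, and lies at chr1:74375195-74386062. It was at 28.6, 22.7, 23.1 and 33.5 CPM in hydrogel replicates 1 to 4 and at 28.0, 31.9, 22.1 and 24.7 CPM in antimiR-195 replicates 1 to 4. The highest values were in hydrogel replicate 4 and antimiR-195 replicate 2, the libraries with the highest summed macrophage markers of their groups (2449 and 2700 CPM). The lowest was in antimiR-195 replicate 3, where that sum was also lowest, 1545 CPM. The sum leaned on Lyz2, at 1326 CPM in antimiR-195 replicate 2. That library was highest for 9 of the 15 markers and lowest for 1, Mertk, at 6.73 CPM. Hydrogel replicate 4 was highest for 6. The part of cell number in this pattern was not tested. The means were 27.0 ± 5.14 and 26.7 ± 4.22 CPM (SD, n = 4), with a log2 fold change of -0.01 ± 0.16 and a 95% interval of -0.37 to 0.34. It was -0.12 without antimiR-195 replicate 2.

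Ratios within a library do not depend on how it was scaled, and 3 were tested by the exact two-sided permutation test, whose smallest p with 4 against 4 libraries is 0.0286. Per length, Fth1 was 26.8, 24.8, 31.5 and 17.9 times Ftl1 in hydrogel replicates 1 to 4 and 21.6, 25.5, 22.7 and 21.1 times in antimiR-195 replicates 1 to 4. The antimiR-195 ratios lay inside the hydrogel range, and the mean log2 ratio differed by -0.13 between groups, with an exact p of 0.543. It was -0.28 without hydrogel replicate 4 (exact p = 0.0857) and -0.01 without hydrogel replicate 3. The ratio carries the uncertainty of Ftl1 given above.

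The ratio of Tfrc to Slc40a1, import against export, was 0.531, 2.95, 1.64 and 1.76 in hydrogel replicates 1 to 4 and 0.943, 1.11, 1.49 and 1.31 in antimiR-195 replicates 1 to 4. The hydrogel group again held both extremes, and the difference in mean log2 ratio was -0.29 (exact p = 0.629). It was -0.77 without hydrogel replicate 1, with an exact p of 0.0286, the smallest 3 against 4 libraries can give, and 0.0857 when adjusted over the 3 ratios. Without hydrogel replicate 2 it was 0.05.

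Hmox1 was set against Hmox2, the constitutive heme oxygenase. The ratio was 2.32, 1.84, 1.66 and 3.12 in hydrogel replicates 1 to 4 and 3.95, 1.47, 2.53 and 2.38 in antimiR-195 replicates 1 to 4. Hmox1 was above Hmox2 in all 8 libraries. The difference in mean log2 ratio was 0.16 (exact p = 0.629), or -0.07 with antimiR-195 replicate 1 left out. With antimiR-195 replicate 2 left out instead it was 0.41. Adjusted over the 3 ratios, each exact p was 0.629.

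Levels can be ordered between genes only per length, in the deposited RPKM (reads per kilobase of gene, scaled to library depth). Over the 8 libraries Fth1 was at 3954 ± 926 RPKM, Ftl1 at 166 ± 34.7, Hmox1 at 88.4 ± 28.9 and Blvrb at 15.8 ± 4.12 RPKM (SD, n = 8). Tfrc followed at 14.2 ± 6.20 RPKM, Slc40a1 at 9.97 ± 1.10 and Slc11a1 at 7.28 ± 1.37 RPKM (SD, n = 8). Storage transcripts thus led, followed by the inducible heme oxygenase, and the other 4 genes lay below it.

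Fth1 was above Ftl1, and Hmox1 above Blvrb, in 8 of 8 libraries with no overlap of their ranges. Ftl1 was above Hmox1, and Slc40a1 above Slc11a1, within each of the 8 libraries, though their ranges over libraries overlapped. Comparisons with Ftl1 carry its uncertainty given above, since reads that align to several places were not counted. Blvrb was above Tfrc in 4 of 8 libraries and Tfrc above Slc40a1 in 6 of 8, so these neighbours were not ordered beyond their spread.

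Around the 7 genes, 79 further genes of heme and iron metabolism in 6 lists were read from the same fit. Of these 73 were tested, and 0 passed the threshold, 0 had an unadjusted p below 0.05 (1.27% of all genes), and 0 had groups that did not overlap (1.07% of all genes). A positive fold change was found in 28 and a negative one in 45, with a median of -0.06, against 7326 positive and 6646 negative over all genes. The 3 genes of smallest p in each list are named below, and none passed. Their values with a library left out are given where single libraries moved them most.

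In heme synthesis 4 of 12 genes were positive and 8 negative, with a median log2 fold change of -0.13. Alas1 was at -0.31 ± 0.17, Uros, which closes the porphyrin ring, at -0.20 ± 0.11, and Abcb10, a mitochondrial transporter needed for heme production, at -0.14 ± 0.11. Alas1 averaged 217 ± 51.2 CPM in hydrogel and 176 ± 10.7 CPM in antimiR-195 (SD, n = 4). The spread in the hydrogel group was the wider one. As for Tfrc, the size depended on hydrogel replicates 1 and 2, with -0.44 without the first and -0.20 without the second.

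In heme breakdown and transport 3 of 13 genes were positive and 10 negative, with a median of -0.08. Cyb5r3, a cytochrome b5 reductase, was at 0.26 ± 0.15, Hpx, the heme scavenger hemopexin, at -0.77 ± 0.57 and the porphyrin exporter Abcg2 at -0.16 ± 0.15. Hpx was scarce, from 0.171 to 1.62 CPM. Without antimiR-195 replicate 2, Cyb5r3 was at 0.11 and Abcg2 at -0.07. Hpx was at -1.34 without antimiR-195 replicate 1 and at -0.47 without antimiR-195 replicate 4.

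In iron uptake and release 9 of 12 genes were tested, 3 positive and 6 negative, with a median of -0.10. Lcn2, a siderophore binder of neutrophils and injured tissue that is also on the neutrophil list, was at 54.9 ± 23.4 CPM in hydrogel and 37.0 ± 7.66 CPM in antimiR-195 (SD, n = 4). Its log2 fold change was -0.57 ± 0.29, or -0.36 without hydrogel replicate 1 and -0.80 without hydrogel replicate 2. The other 8 neutrophil markers, none at 0, summed to 33.7 to 40.4 CPM in hydrogel and 29.7 to 83.3 CPM in antimiR-195. Of the 7 of them that were tested, 6 had positive fold changes, the opposite sign to Lcn2. With Lcn2 counted, 8 neutrophil markers were tested, and 5 of these, not Lcn2, were highest in antimiR-195 replicate 2. S100a8 was at 20.5 CPM and S100a9 at 31.9 CPM in that library. In the other libraries S100a8 was at 4.37 to 6.88 CPM and S100a9 at 5.15 to 10.2 CPM. Slc39a8, an importer of zinc, manganese and iron, was at 0.36 ± 0.21, and the ferrireductase Steap4 at -0.20 ± 0.17. Steap4 was at -0.07 without antimiR-195 replicate 2 and at -0.35 without antimiR-195 replicate 3.

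In iron storage and regulation 12 of 15 genes were tested, 3 positive and 9 negative, with a median of -0.07. Ftmt, mitochondrial ferritin, had 0 counts in all 8 libraries. Hfe, which takes part in iron sensing upstream of hepcidin, was at -0.22 ± 0.12, the hepcidin inducer Bmp6 at -0.39 ± 0.34, and Hfe2, hemojuvelin, at -0.13 ± 0.13. Bmp6 was at 4.05 CPM in antimiR-195 replicate 2 and at 9.52 to 17.9 CPM in the other 7 libraries, and its log2 fold change was -0.11 without that library. Hfe2 was at -0.06 without hydrogel replicate 2.

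In iron-sulfur cluster assembly 6 of 12 genes were positive and 6 negative, with a median of 0.00. The genes of smallest p were Lyrm4 at -0.18 ± 0.15, Nfs1, the cysteine desulfurase that Lyrm4 stabilizes, at -0.14 ± 0.15, and Bola3 at -0.10 ± 0.12. Without antimiR-195 replicate 2, Nfs1 was at -0.03. Without hydrogel replicate 3, Lyrm4 was at -0.05 and Bola3 at -0.02. On the axis of Nrf2 and Bach1 9 of 15 genes were positive and 6 negative, with a median of 0.03. Nfe2l2, which encodes Nrf2, was at -0.17 ± 0.13, glutathione reductase Gsr at 0.19 ± 0.15 and thioredoxin reductase Txnrd1 at 0.11 ± 0.10. Without antimiR-195 replicate 2, Nfe2l2 was at -0.07 and Gsr at 0.08.

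The genes whose log2 CPM ran most like that of a member over the 8 libraries were sought among 13079 genes, as a description, since libraries share their depth and tissue makeup with every gene. For Tfrc they were Ly75, an endocytic receptor, with Pearson's r of 0.95, Gpr107 with 0.93 and the fatty acid desaturase Scd1 with 0.92. Scd1 ran from 11.8 CPM in hydrogel replicate 1 to 26.3 CPM in antimiR-195 replicate 3. For Hmox1 they were Ankrd29 with 0.93, Cyfip1 with 0.93 and the sorting nexin Snx7 with 0.92. Cyfip1 was highest in antimiR-195 replicate 1, at 77.9 CPM, with 60.6 to 68.7 CPM in the other 7. For Slc40a1 they were the splicing factor U2af2 with 0.95, Rnf103 with 0.91 and the peroxisomal import receptor Pex5 with 0.91. In all, 9 genes exceeded 0.9 for Tfrc, 9 for Hmox1 and 6 for Slc40a1.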

How the data were processed

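Polyadenylated RNA was isolated with TRIzol and made into libraries with a TruSeq stranded mRNA kit, per the labels' protocols. Alignment and counting tools are listed as STAR, HTSeq and DESeq, with the build GRCm38 and no versions, per the submitters' processing notes. Neither the annotation release nor the use of strand is given in the sources used here. Values were deposited by the authors as whole-number counts per Ensembl gene and as RPKM values. Counts in the table of the series and in the files per library were equal, with 0 differing cells. Summary lines without a gene were not used. Among uniquely aligned reads, those outside genes made up 6.38% to 7.55% and ambiguous ones 0.772% to 1.05%.

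Groups came from the drug label. Genes passing filterByExpr were scaled with TMM factors (0.953 to 1.04) and tested two-sided with edgeR's quasi-likelihood test (edgeR 4.0.16, R 4.3.3) over all 8 libraries without covariates, with Benjamini-Hochberg adjustment over 13972 genes and a threshold of 0.05. CPM values were computed from the deposited counts, and gene lengths from the counts and the deposited RPKM. Fold changes carry their SE, means their SD. Replicate numbers follow accession order and pair nothing. Ratios were tested by exact permutation over 70 assignments.

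Alternatives were other scaling factors, no filter, DESeq2 1.42.0, limma-voom with quality weights, limma-trend on log2(RPKM + 0.1) and log2(RPKM + 1) (limma 3.58.1), and each library left out. Removal of the length trend, and leaving out hydrogel replicate 1 with antimiR-195 replicate 2, were added after seeing the data. The edgeR test was tested on simulated data. UTRs came from GENCODE M21, at least 50 bases and the longest per gene, and copies from blastn 2.17.0. The members and lists were chosen with earlier results of these data known. Named genes are the 7 members, the 3 of smallest p per pathway list, Hmox2, and the 3 with the highest r to Hmox1, Tfrc and Slc40a1. Other names were chosen after their values were seen.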

Additional observations from a re-analysis of the deposited data

Results flagged for a closer look

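In 56 sets of 4 libraries (25 genes and 3 ratios in each group), a single library was compared with the spread of the other 3, and 3 stood apart. Chance marks about 1 set in 20 this way. Hmox1 was at 317 CPM in antimiR-195 replicate 1, with the other 3 libraries of the group at 158 to 164 CPM. Cyb5r3 was at 169 CPM in antimiR-195 replicate 2, with the others at 118 to 124 CPM. Nfs1 was at 66.2 CPM in antimiR-195 replicate 2, with the others at 95.6 to 97.3 CPM.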

How the results depend on the processing

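No gene passed the threshold in any of 18 alternatives, and the number at unadjusted p below 0.05 ran from 104 to 428. Of 126 alternative values of the 7 members, 108 kept their sign and 18 did not, and the lowest adjusted p was 0.8918. Tfrc and Ftl1 kept their sign throughout. Limma-voom with quality weights put Fth1 at -0.16, Blvrb at -0.0213 and Abcg2 at 0.0029. With the length trend removed Fth1 was at -0.0434, and without hydrogel replicate 1 and antimiR-195 replicate 2 Fth1 was at -0.11 and Slc40a1 at 0.048. Slc11a1 was at 0.0109 with no factors, 0.0173 on log2(RPKM + 0.1) and 0.0147 on log2(RPKM + 1). Leaving out single libraries gave Fth1 -0.17 to 0.15, Slc11a1 -0.12 to 0.10, Slc40a1 -0.13 to 0.0053, Blvrb -0.0346 to 0.34 and Hmox1 -0.16 to 0.30. The ratio of Hmox1 to Hmox2 ran from -0.0694 to 0.41 and that of Tfrc to Slc40a1 from -0.77 to 0.0521, and that of Fth1 to Ftl1 from -0.28 to -0.01. The cause was not tested. The median half-width of the 95% interval of a log2 fold change was 0.38 over all genes tested. No paired analysis was possible because replicate numbers come from accession order alone.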
